A study of Homo sapiens with 12 samples.

Results

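The genes described here are 46 genes of the kinetochore, the centromere and the spindle checkpoint, taken by symbol from result tables that list 23195 genes for the Nutlin-3a comparisons. All 46 were found once in each of the 4 tables. They were measured in HCT116, a human colorectal carcinoma line with functional p53, by sequencing of polyA-selected RNA in 12 libraries. The groups were siControl with DMSO, siControl with Nutlin-3a, siRFX7 with DMSO and siRFX7 with Nutlin-3a, with 3 replicates each; siControl is the control siRNA, siRFX7 targets the transcription factor gene RFX7, and the 10 µM Nutlin-3a or the DMSO solvent was given for 24 h. Nutlin-3a blocks MDM2 and so stabilises p53. All groups were transfected, and none was left without an siRNA. The labels do not say how many different siRNAs against RFX7 were used, nor whether replicates were separate cultures.

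The kinetochore is the protein assembly that joins a chromosome to spindle microtubules in mitosis. Its base is chromatin that carries the histone variant CENP-A, loaded by HJURP and the MIS18 complex. The constitutive centromere-associated network (CCAN) sits on that chromatin, and the MIS12, KNL1 and NDC80 complexes reach from it to the microtubule. The spindle checkpoint kinases and adaptors delay anaphase until every kinetochore is attached, and the chromosomal passenger complex corrects wrong attachments. Many of these genes are transcribed mainly in late S, G2 and M phase and are repressed when p53, through p21 and the DREAM complex, holds cells out of the cycle. Here 32 members were placed in a cell-cycle-regulated list and 10 in a constitutive list from general knowledge, and 4 (CENPL, CENPQ, ZWILCH, MIS18A) in neither. The lists were drawn up with earlier results of these data known, so contrasts between them are descriptions and no independent test.

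DREAM-type complexes reach late cell cycle genes through the cell cycle genes homology region (CHR), so promoters of the members were searched for its letters. RefSeq promoters (GRCh38.p14, 250 bases before to 50 after the start) were given for 37 of the 46 members. The letters TTTGAA or TTTAAA, read on both strands (TTCAAA is TTTGAA on the other strand, and TTTAAA reads the same on both), stood in the promoters of 19 of these 37 members, or 51.4%. Over the 12010 genes of the tables with a promoter of the same length, 21.7% held them, and 27.9% of all 27305 genes with a promoter did. Counted by promoter window instead of by gene, 48.8% of the 43 member windows held them, against 24% of all 35116. Taken apart, TTTGAA stood in 45.9% of the 37 members and in 13.8% of the 12010 genes. TTTAAA stood in 10.8% and 11.2%, so the higher share of the members lay with TTTGAA and not with TTTAAA. By list, 16 of 26 cell-cycle-regulated members and 3 of 9 constitutive members had a match to either. Within 50 bases of the start, a distance chosen after the positions were seen, 14 of the 26 and 1 of the 9 had a match, against 6.99% of the 12010 genes. The letters CCAAT, which can share an end base with either of the others, stood in 26 of the 37 promoters (70.3%), against 42.3% of the 12010. The lists had similar shares of CCAAT, with 18 of 26 cell-cycle-regulated, 6 of 9 constitutive and 2 of 2 unplaced members. A match is a run of letters and no shown binding site. Stretches of 11 of the 15 members with a match within 50 bases are printed as examples from both lists, picked after their values were seen; SKA1, CENPF, ZWINT and SGO2 also had a match there. The stretches are read 5′ to 3′ on the strand of the gene, with the matched letters in capitals.
CENPA (chr2:26786026-26786055, plus strand): cggagcgagcgaTTTGAAcgcgagcggcgc
CDCA8 (chr1:37692481-37692510, plus strand): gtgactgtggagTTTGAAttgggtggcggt
BUB1B (chr15:40161034-40161063, plus strand): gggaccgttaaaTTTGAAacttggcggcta
SPC25 (chr2:168890416-168890445, minus strand): aagtgcactaggTTTGAAatcggaaagttg
NDC80 (chr18:2571542-2571571, plus strand): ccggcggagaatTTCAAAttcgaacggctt
NUF2 (chr1:163321958-163321987, plus strand): ggaggcggcaagTTTGAAaagtgatgacgg
SKA3 (chr13:21176538-21176567, minus strand): ccggcgccgagaTTCAAActagtggcggga
MAD2L1 (chr4:120066807-120066836, minus strand): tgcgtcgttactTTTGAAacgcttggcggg
INCENP (chr11:62123989-62124018, plus strand): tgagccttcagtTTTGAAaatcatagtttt
CENPN (chr16:81007205-81007234, plus strand): gcaattggtggcTTTGAAggcgcggcgagc
CENPO (chr2:24793449-24793474, plus strand): ggttggtttggtTTTGAAgacgtgga

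The tables give statistics for groups and not for libraries. The mean normalized count of each gene in each group was therefore recovered from the mean over all libraries and the fold changes, and whether libraries of different groups overlap cannot be shown. Mean normalized counts summed to 26801484 over the listed genes, and the lowest mean of a member was 147.95, that of CENPP. As checks of the labels, the group means of RFX7 were 944 (DMSO) and 1332 (Nutlin-3a) in siControl cells and 185 (DMSO) and 302 (Nutlin-3a) in siRFX7 cells. Those of CDKN1A, the p21 gene that p53 activates, were 5493, 121149, 13389 and 154897 in the same order, so that it was already higher with siRFX7 in DMSO (log2 fold change 1.29 with a standard error, SE, of 0.10 in the authors' deposited table). Named pseudogenes of CENPC, CENPI, CENPU, SKA2, BUB1, BUB3 and SGO1 are annotated and could share reads with them. Of 8 epithelial markers, 7 were listed, led by KRT8 with a mean normalized count of 80338. Among the intestinal ones, CDX2 had group means from 628 to 758 and VIL1 from 3.67 to 17.5, and LGALS4 was not listed. Of 8 markers of other cell types, 4 were listed, the highest being COL1A1 with a mean of 441.

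Nutlin-3a lowered every member in siControl cells. The authors' deposited table called all 46 lower (adjusted p below 0.05), where 21.2% of all genes were called lower and 22% higher. The median log2 fold change of the members was -3.65, against 0.02 over all 23195 genes, so that the median member kept 7.95% of its DMSO level. Summed over the 46 genes, siControl cells held 93414 normalized counts with DMSO and 14959.6 with Nutlin-3a. In bulk RNA, fewer cells in the mitotic part of the cycle and less RNA of these genes per cell cannot be told apart. The lists lay apart in their medians and overlapped in range. The 32 cell-cycle-regulated members had log2 fold changes from -5.60 to -2.29 with a median of -4.24, and the 10 constitutive members from -2.85 to -0.52 with a median of -1.04. The 4 unplaced members lay from -3.25 to -2.16.

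**Figure D1:**
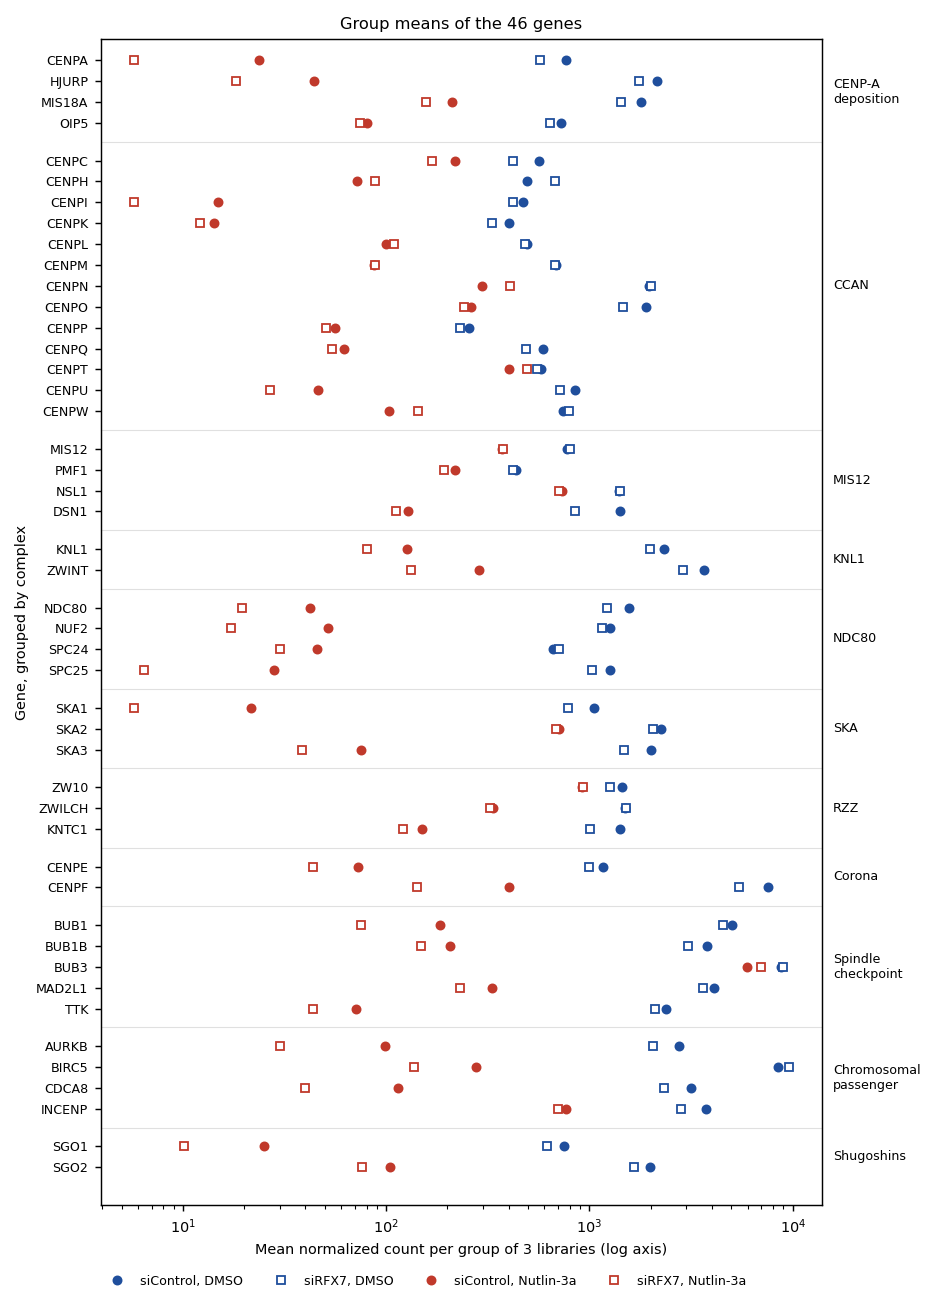
Mean normalized count of each of the 46 genes in the 4 groups of 3 libraries, on a log axis, with genes grouped by complex; blue marks are DMSO, red marks Nutlin-3a, filled circles siControl and open squares siRFX7. The red marks lie left of the blue ones for all 46 genes, with BUB3 and CENPT the closest pairs, and the red squares of SPC25, SKA1, CENPA and CENPI lie between 5.72 and 6.40 counts; counts are not divided by gene length, so levels are to be compared within a gene only.

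Centromeric chromatin genes fell steeply but unevenly. HJURP, the chaperone that deposits CENP-A, had group means of 2141 (DMSO) and 44.0 (Nutlin-3a) in siControl cells and 1752 (DMSO) and 18.2 (Nutlin-3a) in siRFX7 cells. Its Nutlin-3a log2 fold change in siControl was -5.60 (SE 0.14) in the authors' deposited table, a 48.6-fold fall. CENPA itself had means of 765, 23.7, 570.0 and 5.72 in the same order and fell 32.3-fold in siControl. The MIS18 subunits, which prime the centromere for CENP-A, fell less. In the authors' deposited table MIS18A fell by 3.09 (SE 0.14) on the log2 scale, from 1789 to 209.8 counts, and OIP5, which encodes MIS18B, went from 727 to 80.6. Exons of OIP5 overlap those of OIP5-AS1 on the other strand, and the strand setting of the counting is not stated, so its level is uncertain.

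The 13 CCAN members spanned nearly the whole range of the module. CENPI went from 472 counts in siControl DMSO to 14.9 in siControl Nutlin-3a, a log2 fold change of -4.98 (SE 0.25) in the authors' deposited table, and CENPK, its partner in the CENP-H/I/K group, from 402 to 14.2. CENPH, the other partner, kept 14.5% of its level against 3.16% for CENPI and 3.54% for CENPK. CENPU kept 5.47%. CENPM, CENPN, CENPW, CENPQ and CENPL kept between 10.5% and 20.2%. CENPC and CENPT are the direct links to the outer kinetochore and were the least lowered of the 13. CENPC went from 565 to 217 counts, with a log2 fold change of -1.38 (SE 0.10) in the authors' deposited table. CENPT (chr16:67828157-67847811, minus strand, GRCh38) went from 578 to 404, with -0.52 (SE 0.09), the smallest fall of all 46 members in siControl. CENPO and CENPP stood apart from the other constitutive members. The authors' deposited table gives -2.85 (SE 0.09) for CENPO and -2.18 (SE 0.17) for CENPP, which is within the range of the cell-cycle-regulated list for CENPO. Exons of CENPO overlap those of ADCY3, and exons of CENPP those of IPPK, each on the other strand, so both values are uncertain.

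The MIS12 complex, the bridge between CCAN and NDC80, split within itself. Group means of MIS12 were 779 (DMSO) and 372 (Nutlin-3a) in siControl cells and 800.3 (DMSO) and 374 (Nutlin-3a) in siRFX7 cells, those of NSL1 1390.2, 736, 1408 and 706, and those of PMF1 436, 217, 419 and 193. Each kept close to 50% with Nutlin-3a: 47.7% for MIS12, 52.9% for NSL1 and 49.9% for PMF1 in siControl. Their log2 fold changes were -1.07 (SE 0.09), -0.92 (SE 0.07) and -1.003 (SE 0.14) in the authors' deposited table. PMF1 shares exons with the readthrough gene PMF1-BGLAP, so its counts are uncertain. DSN1, the fourth subunit, went from 1407 to 127 counts and fell by 3.47 (SE 0.15) in the authors' deposited table, keeping 9.05%. Per kilobase of annotated exon, DSN1 was the highest of the 4 subunits in siControl DMSO with 514 normalized counts per kb and the lowest in siControl Nutlin-3a with 46.5, below PMF1 with 86.3.

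The NDC80, KNL1 and corona genes of the outer kinetochore lost most of their RNA. The 4 NDC80 subunits had siControl means of 1560.1, 1267, 659 and 1264 in DMSO for NDC80, NUF2, SPC24 and SPC25, and of 42.3, 51.9, 45.8 and 28.1 in Nutlin-3a. SPC25 showed the largest fall in the complex, -5.49 (SE 0.18), and SPC24 the smallest, -3.85 (SE 0.16), in the authors' deposited table. Per kb of exon the 4 subunits differed by a factor of 2.96 in siControl DMSO and 1.37 in siControl Nutlin-3a. KNL1, the scaffold that docks checkpoint proteins, fell by 4.21 (SE 0.13), in the authors' deposited table, where ZWINT, its partner, had -3.68 (SE 0.08). The corona protein CENPF went from 7562 to 402 counts with a log2 fold change of -4.23 (SE 0.10), and the motor protein CENPE from 1164 to 72.5 with -4.01 (SE 0.13), in the authors' deposited table.

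SKA and RZZ were mixed in the way of MIS12. SKA1, part of the complex that tracks microtubule ends, went from 1054 to 21.7 counts and, beside HJURP, had the largest fall of the members, -5.60 (SE 0.20) in the authors' deposited table, and SKA3 went from 2006 to 75.2. SKA2 went from 2239 to 712, a fall of 1.65 (SE 0.07) in the authors' deposited table. Per kb of exon the 3 SKA genes lay within a factor of 1.99 of each other in siControl DMSO, and within 30.8 in siControl Nutlin-3a. In RZZ, which recruits dynein and MAD1 to unattached kinetochores, KNTC1 fell by 3.23 (SE 0.11) and ZW10 by 0.66 (SE 0.07) in the authors' deposited table. ZWILCH lay between them, with 1490.1 and 334 counts. The factor between the highest and the lowest RZZ gene per kb rose from 3.90 to 23.0.

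**Figure D2:**
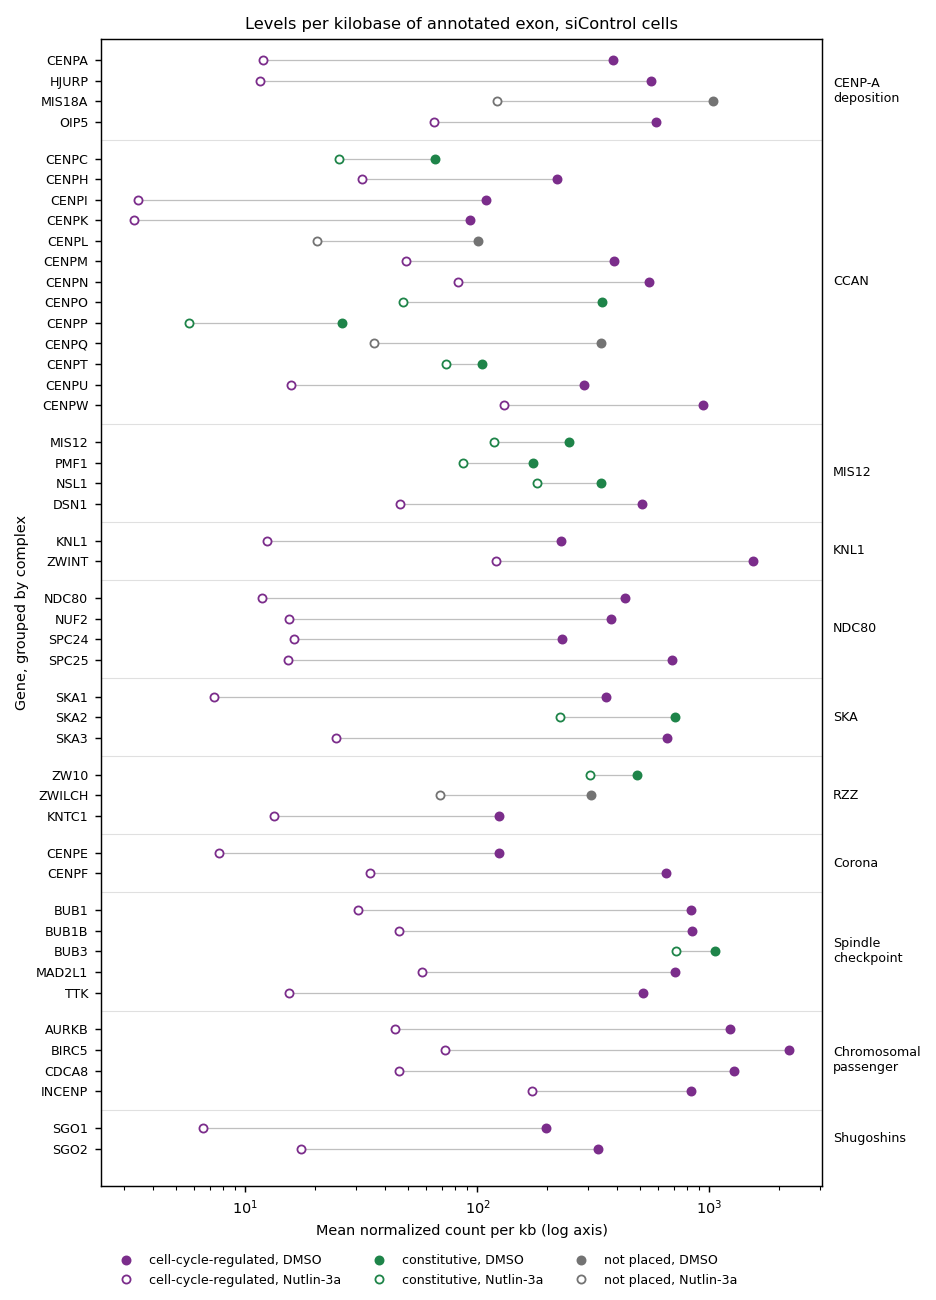
Mean normalized count per kilobase of GENCODE 29 exon for each gene in siControl cells, on a log axis, with filled circles for DMSO, open circles for Nutlin-3a and colours for the 3 lists. In the SKA complex the 3 filled circles lie within a factor of 1.99 and the open ones within 30.8, and in MIS12 the open circle of DSN1 lies below those of the other three subunits.

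Checkpoint genes followed the same split. BUB1 went from 5039.7 counts in siControl DMSO to 184 in siControl Nutlin-3a, BUB1B, the gene of BUBR1, from 3774 to 205, and MAD2L1, the gene of MAD2, from 4094 to 332. TTK, the MPS1 kinase that starts checkpoint signalling, had the largest fall of the 5, -5.06 (SE 0.11) in the authors' deposited table. BUB3 (chr10:123154277-123170467, plus strand, GRCh38), a WD-repeat adaptor, went from 8807 to 5976 counts and fell by 0.56 (SE 0.07) in the authors' deposited table. BUB3 alone held 9.43% of the summed normalized counts of the 46 members in siControl DMSO and 39.9% in siControl Nutlin-3a. In the chromosomal passenger complex, BIRC5, the gene of survivin, had the largest fall, -4.92 (SE 0.12), and the scaffold gene INCENP the smallest, -2.29 (SE 0.08), in the authors' deposited table. The kinase gene AURKB went from 2744 to 98.9 counts and CDCA8, the borealin gene, from 3154 to 114. The shugoshins, which guard centromeric cohesion, had log2 fold changes of -4.91 (SE 0.19) for SGO1 and -4.24 (SE 0.11) for SGO2 in the authors' deposited table. The DESeq2 adjusted p-values of the siControl falls named so far ran from 0 as listed to 3.14e-08 for CENPT. With a minimum absolute log2 fold change of 0.58, CENPT and BUB3 were no longer called.

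In siRFX7 cells Nutlin-3a lowered 45 of the 46 members in the authors' deposited table, where 19.7% of all genes were called lower and 21.7% higher. The median log2 fold change was -4.17, against -0.02 over all genes, and summed counts were 82068 with DMSO and 14546 with Nutlin-3a. The member not called was CENPT, with -0.17 (SE 0.09, DESeq2 adjusted p 0.12) in the authors' deposited table; after scaling to equal group totals it was called lower. The cell-cycle-regulated list had a median of -4.76 and the constitutive list of -1.11. Constitutive members had log2 fold changes of -1.33 for CENPC, -2.61 for CENPO, -2.19 for CENPP, -1.10 for MIS12, -1.12 for PMF1, -0.996 for NSL1, -1.58 for SKA2, -0.43 for ZW10 and -0.37 for BUB3 in the authors' deposited table. The constitutive list made up 19.7% (DMSO) and 66.0% (Nutlin-3a) in siControl cells and 21.4% (DMSO) and 74.2% (Nutlin-3a) in siRFX7 cells, as shares of the members' summed counts. BUB3 alone made up 9.43%, 39.9%, 10.9% and 47.8% in the same order, and counts were not divided by gene length. The deepest falls were those of SPC25 at -7.33 (SE 0.34), SKA1 at -7.09 (SE 0.36) and CENPA at -6.64 (SE 0.36) in the authors' deposited table, each to a siRFX7 Nutlin-3a mean of about 6 normalized counts.

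**Figure D3:**
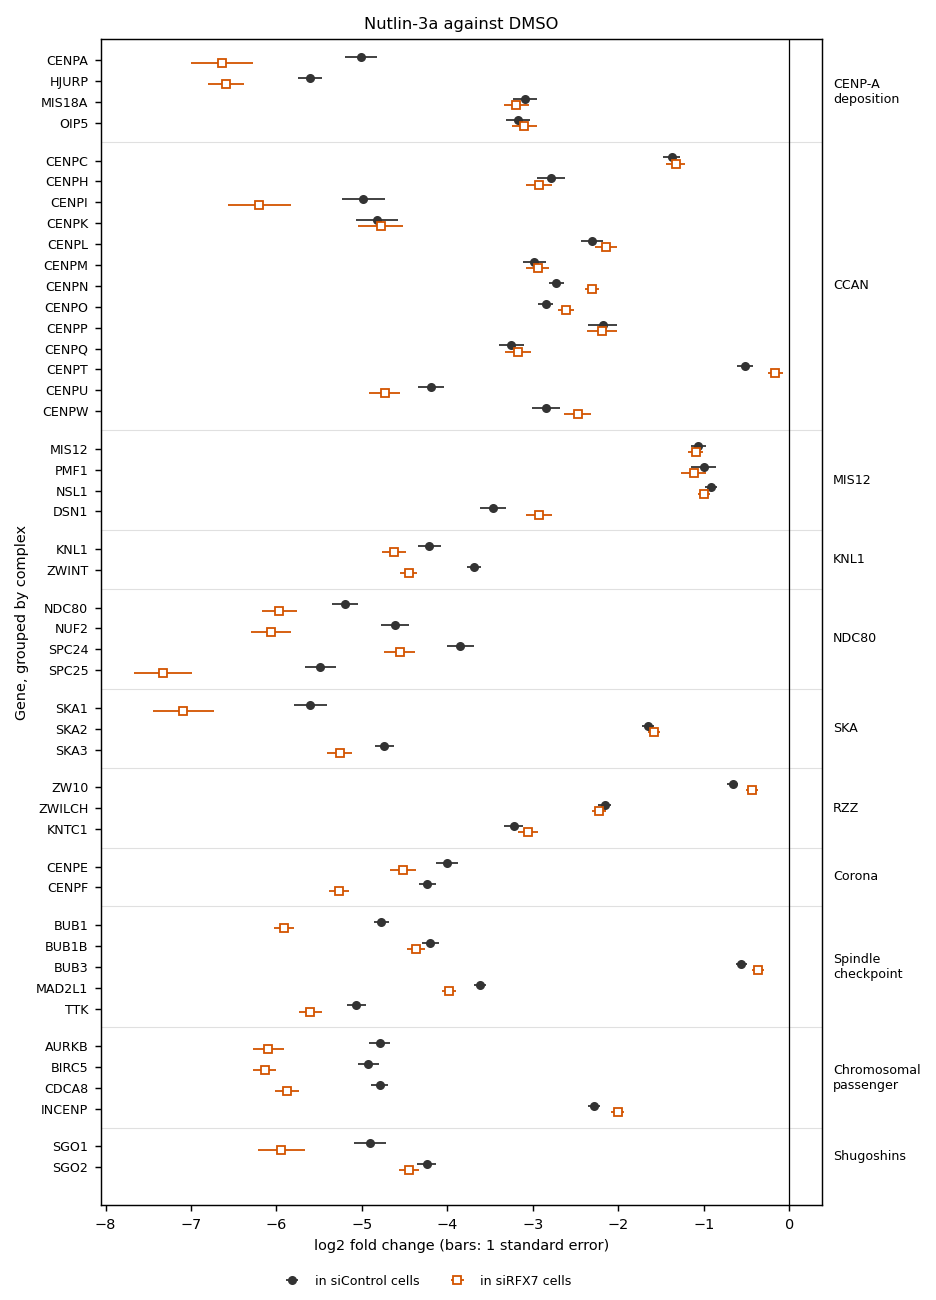
Log2 fold change with Nutlin-3a against DMSO for each gene, filled circles in siControl and open squares in siRFX7 cells, with bars of 1 standard error. Every mark lies left of 0; the squares of SPC25, SKA1 and CENPA lie farthest left at -7.33, -7.09 and -6.64, while those of CENPT, BUB3 and ZW10 lie closest to 0.

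The comparison of siRFX7 with siControl in DMSO asks what the knockdown does to these genes in unstressed cells. The changes were small: 25 members were called lower and 1 higher in the authors' deposited table, where 15.5% of all genes were called lower and 13.5% higher. The median log2 fold change of the members was -0.23, against 0.00 over all 20026 genes, and the values ran from -0.72 to 0.45. DSN1 had the largest fall, from 1407 counts in siControl DMSO to 853 in siRFX7 DMSO, or -0.72 (SE 0.13) in the authors' deposited table, and it was the 1 member left with a minimum absolute log2 fold change of 0.58. KNTC1, CENPF, SKA3, CDCA8, SKA1, CENPC, CENPA, AURKB and INCENP fell by between 0.49 and 0.41 in the authors' deposited table. CENPH was the member that rose, from 493 to 676 counts (0.45, SE 0.13, DESeq2 adjusted p 0.00285, in the authors' deposited table). Of the constitutive list CENPC, CENPO and ZW10 were called lower, at -0.42 (SE 0.09), -0.37 (SE 0.07) and -0.21 (SE 0.07) in the authors' deposited table. The other constitutive members lay between -0.14 and 0.04. BIRC5 was not called, with 8424 counts in siControl and 9629.7 in siRFX7 (log2 fold change 0.19, SE 0.11, in the authors' deposited table). Scaling to equal group totals left 18 members lower and 1 higher, with CENPE, CENPQ, CENPU, ZW10, BUB1, MAD2L1 and TTK no longer called; over all genes it changed the calls from 3107 lower and 2704 higher to 2262 lower and 3391 higher.

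The same comparison in Nutlin-3a asks what the knockdown does once p53 is active, and here the values spread more widely, from -2.14 to 0.47. The authors' deposited values called 25 members lower and 4 higher, against 13.6% and 15% of all genes, and the median was -0.44 against 0.00 over all 19393 genes. The largest falls were those of SPC25, from 28.1 counts in siControl Nutlin-3a to 6.40 in siRFX7 Nutlin-3a, or -2.14 (SE 0.38), and CENPA, from 23.7 to 5.72, or -2.05 (SE 0.40), in the authors' deposited table. Falls at higher counts were those of AURKB at -1.72 (SE 0.20), CDCA8 at -1.52 (SE 0.16), CENPF at -1.51 (SE 0.12), BUB1 at -1.29 (SE 0.13) and BIRC5 at -1.02 (SE 0.14) in the authors' deposited table. AURKB had 98.9 counts in siControl Nutlin-3a and 30.0 in siRFX7 Nutlin-3a, and CENPF 402 and 141. All 4 NDC80 subunits, both KNL1 complex members, both corona genes and both shugoshins were called lower, while no member of the MIS12 or RZZ complexes was called. KNTC1 of RZZ was near the threshold, at -0.31 (SE 0.13, DESeq2 adjusted p 0.0657) in the authors' deposited table. It was called lower when genes were limited to a mean normalized count of at least 100.

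The 4 members that rose with siRFX7 in Nutlin-3a were 3 CCAN genes and BUB3. CENPN, which reads CENP-A nucleosomes, had means of 295 in siControl and 407 in siRFX7, a log2 fold change of 0.46 (SE 0.09, DESeq2 adjusted p 1.09e-05). CENPW, the histone-fold partner of CENP-T, had 103 and 143 counts and a value of 0.47 (SE 0.18, DESeq2 adjusted p 0.0278). CENPT had 404 and 495 counts and a value of 0.29 (SE 0.09, DESeq2 adjusted p 0.00568), and BUB3 5976 and 6956 counts and a value of 0.22 (SE 0.07, DESeq2 adjusted p 0.00682), all in the authors' deposited table. With a minimum absolute log2 fold change of 0.58 none of these 4 was called and 20 members were lower, where 681 of all 19393 genes were lower and 801 higher. The DMSO and Nutlin-3a comparisons of the siRNAs share no library with each other, though each shares libraries with the Nutlin-3a comparisons. Between them, 19 members were called lower in both, 6 lower in DMSO only, 6 lower in Nutlin-3a only, and none in opposite directions. Over the 19393 genes of both tables the shares were 8.34% lower in both, 7.26% lower in DMSO and not called in Nutlin-3a, 5.03% the reverse, and 0.665% in opposite directions. Those lower in DMSO and not called in Nutlin-3a were CENPO, CENPQ, DSN1, KNTC1, ZW10 and INCENP. For these 6 a difference between the 2 effects was not called by the z test given below (adjusted p from 0.112 to 0.943), which does not show that the effects are equal. Of those lower in Nutlin-3a only, that test called NUF2, SPC24 and BIRC5, and not CENPI, KNL1 and MIS18A. DSN1 had 127 counts in siControl Nutlin-3a and 112 in siRFX7 Nutlin-3a, and INCENP 766 and 698.

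**Figure D4:**
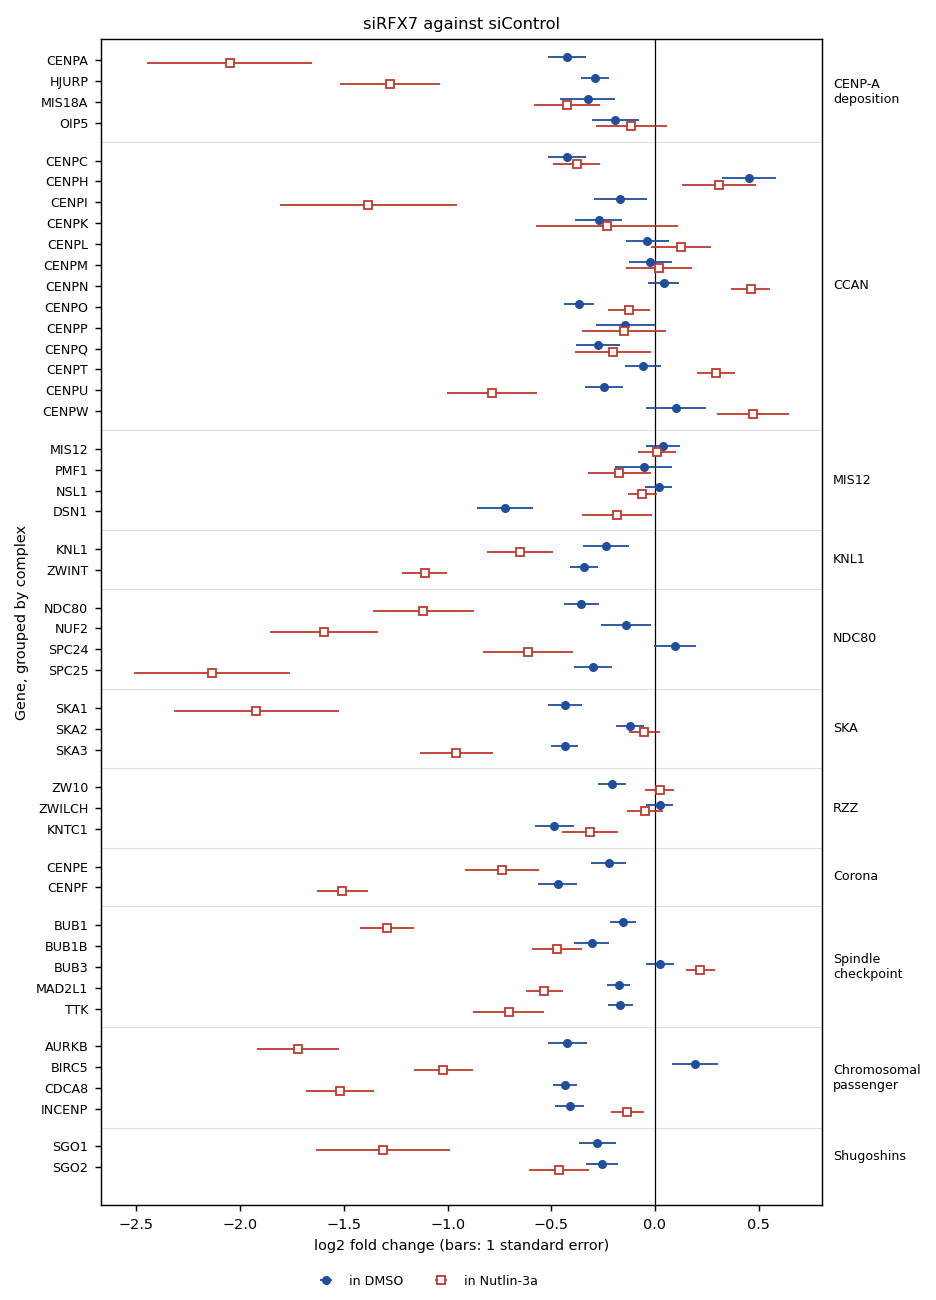
Log2 fold change of siRFX7 against siControl for each gene, filled circles in DMSO and open squares in Nutlin-3a, with bars of 1 standard error. In DMSO the values lie between -0.72 and 0.45; in Nutlin-3a the squares of SPC25 and CENPA reach -2.14 and -2.05, those of CENPN and CENPW lie at 0.46 and 0.47, and those of the MIS12 and RZZ complexes lie between -0.31 and 0.02.

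Whether the Nutlin-3a effect itself differed between the siRNAs was tested as the difference of the 2 log2 fold changes, siRFX7 minus siControl, with a two-sided z test and Benjamini-Hochberg adjustment over 23195 genes. This difference is by construction also the siRFX7 effect in Nutlin-3a minus that in DMSO. It was called below 0 for 16 members and above 0 for 1, where 2.92% and 3.28% of all genes were called. The members' median was -0.16, against 0.00 over all genes. All 17 called members belong to the cell-cycle-regulated list, whose median was -0.54, and none of the 10 constitutive or the 4 unplaced members was called, with values from -0.12 to 0.35. Scaling to equal group totals left the members' counts at 16 and 1 and changed those of all genes from 677 below 0 and 760 above to 792 and 583.

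By complex, the difference was called below 0 for 4 of 4 NDC80 genes, 3 of 4 passenger complex genes, 3 of 5 checkpoint genes and 2 of 4 CENP-A deposition genes. It was called below 0 for none of the 13 CCAN, 4 MIS12 and 3 RZZ genes. The NDC80 subunits had -1.84 (SE 0.39, adjusted p 0.000128) for SPC25, -1.45 (SE 0.29, adjusted p 2.59e-05) for NUF2, -0.76 (SE 0.26, adjusted p 0.048) for NDC80 and -0.71 (SE 0.24, adjusted p 0.0495) for SPC24. The last 2 values were close to the threshold and were not called at an adjusted p of 0.01. In siRFX7 Nutlin-3a the 4 subunits had low means, of 6.40, 17.2, 19.5 and 30.0 counts in the same order. In the passenger complex the difference was -1.30 for AURKB, -1.21 for BIRC5 and -1.08 for CDCA8 (SEs 0.22, 0.18 and 0.17), while INCENP had 0.28 (SE 0.11, adjusted p 0.112). BUB1 had -1.14 (SE 0.14, adjusted p 6.57e-13), the smallest adjusted p of the members, and CENPF -1.04 (SE 0.16, adjusted p 4.52e-09). BUB1B, a paralogue of BUB1 that kept 5.44% of its level with Nutlin-3a in siControl against 3.65% for BUB1, had -0.17 (SE 0.15, adjusted p 0.688), and SGO1 had -1.03 where SGO2 had -0.20 (SEs 0.33 and 0.16, adjusted p 0.036 and 0.635). Whether such pairs of genes differ from each other was not tested. CENPA, HJURP and SKA1 had -1.63, -0.99 and -1.49 (SEs 0.41, 0.25 and 0.41).

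**Figure D5:**
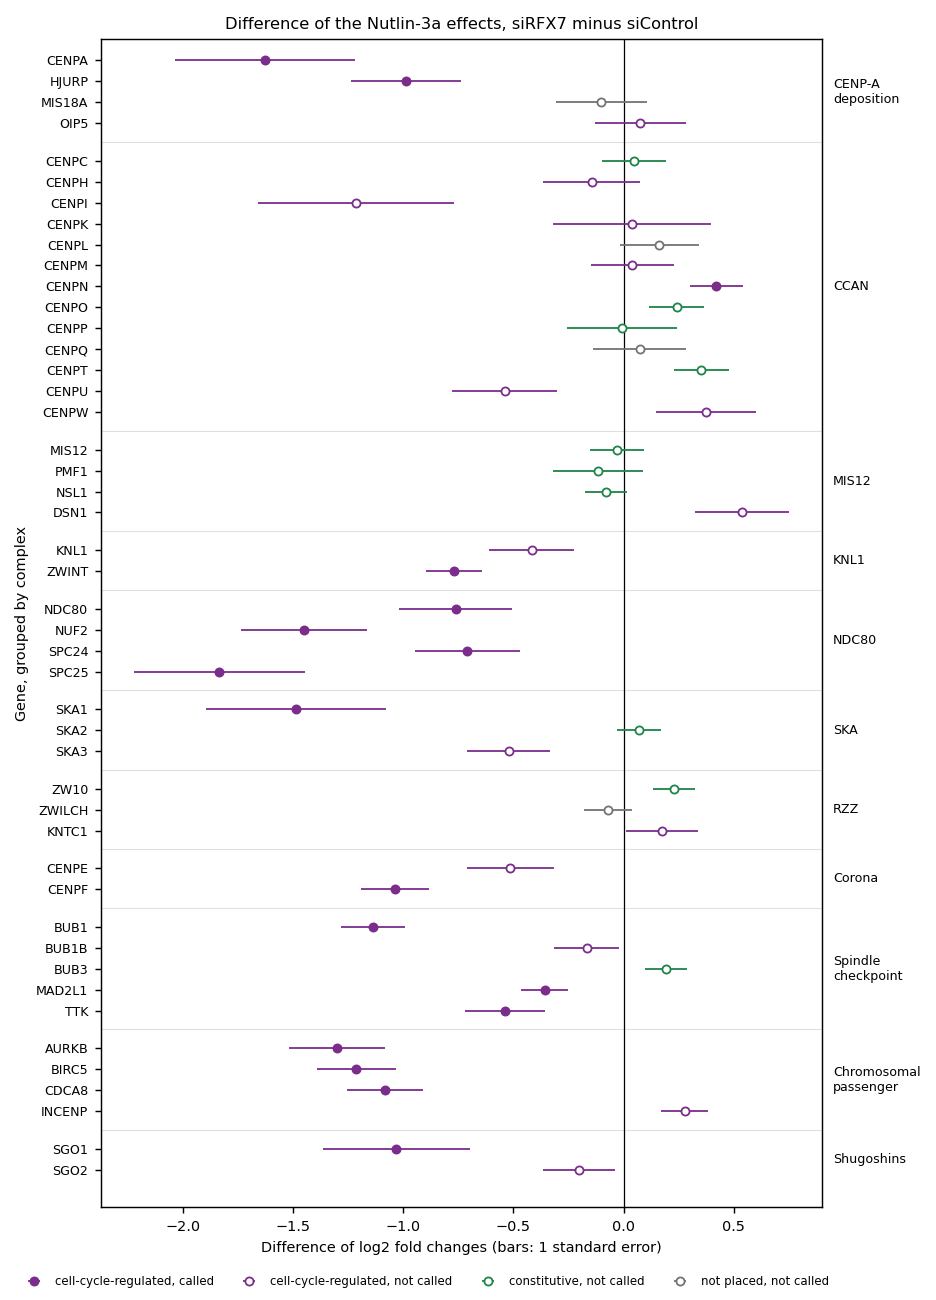
Difference of the Nutlin-3a log2 fold changes, siRFX7 minus siControl, for each gene with bars of 1 standard error; filled marks passed the z test at an adjusted p below 0.05, and colours give the 3 lists. The filled marks are all cell-cycle-regulated genes, 16 left of 0 and CENPN right of it at 0.42, and the 4 NDC80 genes are all filled.

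In CCAN, CENPN was the only member called above 0, with 0.42 (SE 0.12, adjusted p 0.0117), and it was not called at an adjusted p of 0.01. The other 12 CCAN members were not called. Among them CENPI had -1.22 with an SE of 0.45, resting on a siRFX7 Nutlin-3a mean of 5.72 counts, and CENPT had 0.35 with an SE of 0.12 and an adjusted p of 0.0665. DSN1 had 0.54 (SE 0.21, adjusted p 0.128), the highest value of all members. Limiting the test to genes whose mean normalized count was 100 or more added CENPT above 0 and SKA3 below 0. The 14 members with a promoter whose difference was called below 0 included 10 with TTTGAA or TTTAAA, and the other 23 members with a promoter included 9. Of the 12010 genes, 21.7% had a match. All 14 are cell-cycle-regulated members, a list with a match in 16 of 26. The 23 also hold the constitutive members (3 of 9) and unplaced ones (0 of 2). Whether matches go with the difference apart from the lists was not tested. Of the 11 printed stretches, those of BUB1B, SKA3, INCENP, CENPN and CENPO belong to members whose difference was not called below 0.

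Other genes of the pathway that are not among the 46 were read from 2 fixed lists. Of 20 further kinetochore and checkpoint genes, Nutlin-3a lowered 18 in siControl in the authors' deposited table, with a median of -2.26, and raised none, against 21.2% and 22% of all genes. The largest fall was that of ERCC6L, the PICH translocase of anaphase bridges, at -5.59 (SE 0.18), and the highest value that of CLASP1, a microtubule plus-end protein, at 0.09 (SE 0.11, DESeq2 adjusted p 0.526), in the authors' deposited table. The difference between siRNAs was called below 0 for 3 of the 20, CDC20 at -1.01, PLK1 at -1.11 and ERCC6L at -1.23, and above 0 for TRIP13, the MAD2-remodelling ATPase, at 0.38. The 15 genes of the anaphase-promoting complex, the ubiquitin ligase that the checkpoint restrains, moved less: 10 were lower and 2 higher in siControl, where the all-gene shares were again 21.2% and 22%, with a median of -0.33 in the authors' deposited table. CDC26 had the largest fall, -1.01 (SE 0.18), and ANAPC13 the largest rise, 0.27 (SE 0.08), in the authors' deposited table. The difference was called for 1 of the 15, CDC26 at 0.86, a share near that of all genes (2.92% below 0 and 3.28% above).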

How the data were processed

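PolyA RNA of 12 HCT116 libraries was measured, in 4 groups of 3. Per the submitters' processing notes, the tools included Trimmomatic 0.39, cutadapt 2.10, featureCounts 1.6.5 and DESeq2 1.20.0, with genome build hg38. The aligner, the annotation and the strand setting are not given in the sources used here. The 4 tables deposited by the authors each compare 2 groups. Per the file headers, the mean normalized count is a signal (counts divided by size factors, averaged over libraries), the fold changes and standard errors are on a log2 scale, the statistic is a score, and the p-values and adjusted p-values are those of the authors' DESeq2 test. Depth per library is not in the tables. Calls used an adjusted p below 0.05 in the deposited tables.

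Both knockdown tables were taken as siRFX7 relative to siControl, since the 4 tables then closed to within 1.27e-14. Group means were solved from the mean normalized count and the fold changes, with equal weight for the groups. Levels per kb used the union of exons in GENCODE 29 (GRCh38). The difference of the Nutlin-3a effects was computed from the deposited values; its z test treats standard errors as known. Python 3.11.15, pandas 2.3.3 and scipy 1.17.1 were used.

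Members, lists and motifs were chosen with earlier results of these data known. Full statistics are given for the genes with the largest and smallest siControl Nutlin-3a change in each complex, members called against the majority direction, the constitutive list, and others singled out after their values were seen. If replicates were not separate cultures, p-values measure only the spread between these libraries.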

Additional observations from a re-analysis of the deposited data

Results flagged for a closer look

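For 17 members the response to Nutlin-3a depended on the siRNA by the z test, which was called for 1437 of 23195 genes. The values are differences of log2 fold changes, siRFX7 minus siControl. In the NDC80 complex they were -0.76 for NDC80, -1.45 for NUF2, -0.71 for SPC24 and -1.84 for SPC25. In the passenger complex AURKB had -1.30, BIRC5 had -1.21 and CDCA8 had -1.08. Among checkpoint genes BUB1 had -1.14, MAD2L1 had -0.36 and TTK had -0.54. CENPA stood at -1.63 and HJURP at -0.99, SKA1 at -1.49, ZWINT at -0.77, CENPF at -1.04 and SGO1 at -1.03. CENPN, at 0.42, was the 1 called member above 0. At an adjusted p of 0.01, CENPN, NDC80, SPC24, MAD2L1, TTK and SGO1 were no longer called. With a minimum absolute log2 fold change of 0.58, CENPN, MAD2L1 and TTK were not called either. In the authors' deposited tables CDKN1A was higher with siRFX7 by 1.29 (log2) in DMSO and 0.35 in Nutlin-3a, and its own difference was -0.93; its part in these differences was not tested.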

How the results depend on the processing

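Counts of members called were recomputed at an adjusted p of 0.01, with a minimum absolute log2 fold change of 0.58, after scaling to equal group totals, for genes with a mean of at least 100, and with p-values adjusted over the 19393 genes of all tables. Of these counts, that of siRFX7 in DMSO moved from 26 to 1 with the minimum fold change, and that of the difference of Nutlin-3a effects from 17 to 11 at an adjusted p of 0.01; the other counts stayed within 1.5 times, and no called member changed direction under these alternatives. The medians of the members moved by less than their median standard error. Over all genes, the minimum fold change left 5198, 4830, 1547, 1482 and 544 calls, from 10022, 9601, 5811, 5554 and 1437, for Nutlin-3a in siControl, in siRFX7, siRFX7 in DMSO, in Nutlin-3a and the difference. At an adjusted p of 0.01 the difference was called for 863 genes. No paired analysis was possible because the tables hold group statistics without values per library; for the same reason leaving out replicates was not run. Group means near 6 normalized counts limit the precision for SPC25, SKA1, CENPA and CENPI in siRFX7 Nutlin-3a, and a mean of 10.1 does so for SGO1.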
